A study of Mus musculus with 20 samples.

Results

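The genes described here are 10 genes of polyunsaturated fatty acid synthesis and remodelling in mouse liver. The rule that picks them is a list of gene names and uses no measured value, though the list was drawn up with earlier results of these data known. They are the desaturases Fads1 and Fads2, the elongases Elovl1, Elovl2, Elovl3 and Elovl5, the lipid droplet protein Pnpla3, the acyl-CoA synthetases Acsl3 and Acsl4, and the lysophospholipid acyltransferase Lpcat3. They are 10 of 18193 genes that the array measured with a probe set of their own, and each gene is read from its probe set with the highest mean. All 10 were measured, and 9 of them were among the 11728 genes above the median level of the array's probe sets (6.505). Pnpla3, with a mean of 6.41, was not.

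Liver RNA came from 20 male C57BL/6J mice, an inbred strain, with 1 array per mouse and an age of 8 weeks in the labels. The high-fat diet group (HFD) had 10 mice that ate 45 kcal% fat for 4 weeks. The MSXH group had 10 mice that ate that same diet with 0.05% of a maple syrup extract over the same time. So every mouse analysed here was fed high fat, and in every mouse the liver was taken on day 30 after a 16 h fast. The groups of the protocol on 10 kcal% fat and on 0.02% extract were not analysed here. The labels call the arrays of each group biological replicates 1 to 10.

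Mammals cannot make linoleic or α-linolenic acid and build longer polyunsaturated fatty acids from them in the liver, by alternating desaturation and elongation. The enzyme of Fads2 opens the route, that of Elovl5 lengthens its product, that of Fads1 yields arachidonic and eicosapentaenoic acid, and that of Elovl2 leads on towards docosahexaenoic acid. Acyl-CoA synthetases activate the fatty acids, and Lpcat3 places them in phospholipids. The transcription factor SREBP-1c, encoded by Srebf1, is known to drive the desaturase genes in liver, and dietary polyunsaturated fatty acids and fasting are known to lower its activity. Elovl1 and Elovl3 are known mainly for saturated and monounsaturated very long chains, and so lie beside this route.

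Promoter sequence is shown for genes whose levels are set against each other in the results. The RefSeq table (GRCm38.p6) held an entry for 8 of the 10 genes, the others being Fads1 and Elovl3. The 250 bases before the start of the transcript are printed in the direction of the gene. Capitals mark matches, on either strand, to TCACCCC (a core found in sterol response elements), CCAAT (the box bound by NF-Y), GGGCGG (the GC box bound by Sp1) and CACGTG (the E-box). Some matches overlap or touch, as do CCAAT and the GC box at the end of the Acsl3 window.
Acsl3, chr1:78657575-78657824, plus strand: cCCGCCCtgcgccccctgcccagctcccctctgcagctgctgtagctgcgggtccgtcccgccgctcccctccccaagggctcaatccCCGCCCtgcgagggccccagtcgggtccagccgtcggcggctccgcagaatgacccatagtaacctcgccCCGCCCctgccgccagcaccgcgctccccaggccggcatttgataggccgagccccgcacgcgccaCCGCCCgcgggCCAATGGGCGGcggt
Insig1, chr5:28071162-28071411, plus strand: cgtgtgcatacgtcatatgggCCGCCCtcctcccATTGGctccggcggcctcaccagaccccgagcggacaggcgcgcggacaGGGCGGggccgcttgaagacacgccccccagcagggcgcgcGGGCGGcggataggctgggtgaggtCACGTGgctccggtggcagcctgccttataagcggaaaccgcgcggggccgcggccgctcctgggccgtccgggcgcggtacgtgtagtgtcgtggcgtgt
Fads2, chr19:10101504-10101753, minus strand: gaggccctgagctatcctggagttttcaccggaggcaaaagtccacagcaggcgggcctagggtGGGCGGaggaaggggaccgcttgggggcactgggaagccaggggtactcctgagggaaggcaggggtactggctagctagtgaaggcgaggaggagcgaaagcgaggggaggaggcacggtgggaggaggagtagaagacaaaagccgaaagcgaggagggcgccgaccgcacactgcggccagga
Elovl5, chr9:77917115-77917364, plus strand: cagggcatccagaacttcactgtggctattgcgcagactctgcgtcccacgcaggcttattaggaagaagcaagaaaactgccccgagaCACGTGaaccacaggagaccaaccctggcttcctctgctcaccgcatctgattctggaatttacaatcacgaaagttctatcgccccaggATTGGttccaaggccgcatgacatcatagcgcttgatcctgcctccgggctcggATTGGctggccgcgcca

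The Acsl3 window held 5 matches to the GC box and 1 to CCAAT, and that of Insig1, an SREBP target gene set beside Acsl3 below, held 3 and 1. The Fads2 window had a single GC box match, while that of Elovl5 had 2 CCAAT matches and 1 E-box. Over the 8 genes with an entry, a GC box was found for 7, CCAAT for 5, CACGTG for 1 and TCACCCC for 0. A gene was counted if any of its windows matched, and Elovl1 and Elovl2 have more than 1 window. Counted by single window instead, 32.7% of all 32851 windows of 250 bases held a GC box, 33.8% CCAAT, 6.02% CACGTG and 4.31% TCACCCC. These matches describe the letters of the windows and nothing about binding.

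The deposited values were taken as log2 levels. Their spread between arrays is very small: the median SD over the 20 arrays was 9.34e-06, and among the 10 genes it ran from 3.99e-06 for Pnpla3 to 0.00131 for Elovl3. Of the 45101 probe sets, 49 had a range above 0.1 over the arrays. A difference on this scale cannot be read as a fold change. Each gene is therefore given in SD units, as the distance of a mouse from the gene's mean over all 20 mice. Differences between diets are MSXH minus HFD as Hedges' g, the difference of means in pooled SDs, with its 95% interval. The hepatocyte markers Alb (14.74), Ttr (14.46) and Apoa1 (14.59) lay near the top of the deposited values. The other hepatocyte markers measured were lower, Cps1 at 13.77 and Tat at 11.42. A bulk liver sample cannot tell fewer cells of a type from less RNA per cell.

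None of the 10 genes differed between the diets beyond the spread of the mice. With limma over all 11728 genes, 0 of the 9 tested had an adjusted p under 0.05 (0.0% of all genes had), and each of the 9 had an adjusted p of 0.9998. None of them had an unadjusted p under 0.05 either, against 3.62% of all genes; a Wilcoxon rank-sum test called 0 genes as well, with 399 at an unadjusted p under 0.05. Of the 9, 5 were higher and 4 lower in MSXH, with a median g of 0.001. Over all genes 49.4% were higher, the median g was -0.007 and the central 95% of g ran from -0.839 to 0.839. In simulated data for this comparison over 11728 genes, the test recovered 0.5% of genes shifted by 1 SD and 54% of those shifted by 2 SD, so a shift near 1 SD was not detectable with this number of arrays. Quantile normalization of the arrays turned the sign of g for Fads1, Fads2, Lpcat3, Acsl4 and Elovl1, and a shift of the arrays to 1 median that for Elovl5 and Pnpla3.

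**Figure D1:**
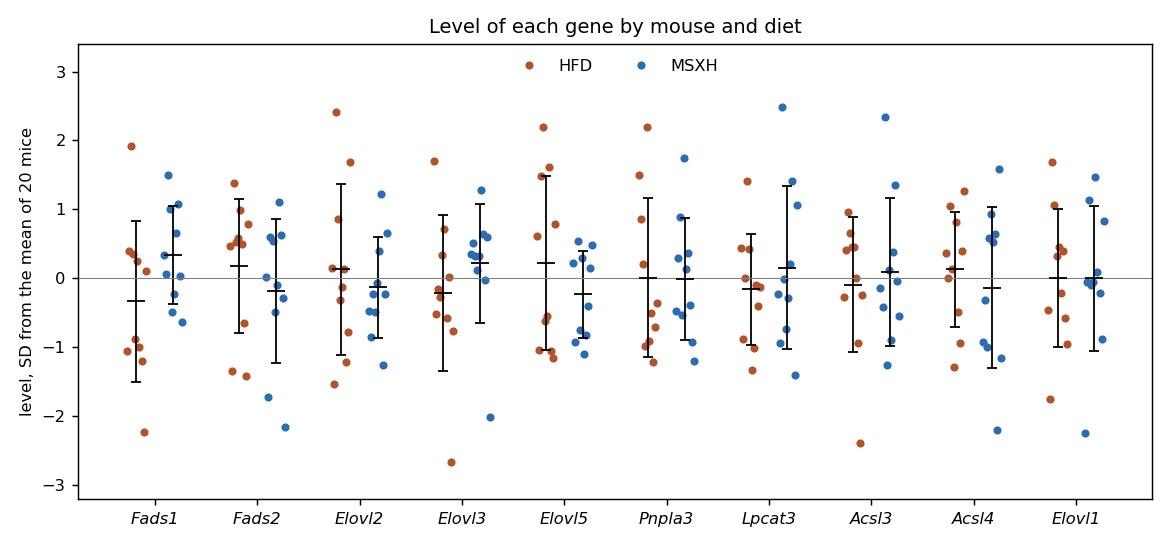
Level of each of the 10 genes in each mouse, in SD from the mean of the 20 mice, for HFD (orange, n = 10) and MSXH (blue, n = 10). Each point is 1 mouse and bars show the mean ± SD; the diets overlap for every gene, and the lowest Fads1, Elovl3, Elovl5 and Acsl3 points all belong to HFD replicate 9.

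Fads1, the desaturase that yields arachidonic and eicosapentaenoic acid, had the largest g of the 10 in the probe sets used and over all 20 mice. In HFD mice it lay between -2.23 and 1.92 SD with a median of -0.382, and in MSXH mice between -0.628 and 1.499 SD with a median of 0.203. Although 8 of the 10 MSXH levels exceeded the HFD median, the MSXH range sat wholly inside the HFD range. The difference was g = 0.663 (95% interval -0.237 to 1.56, limma unadjusted p = 0.132). Its other probe set had g = 0.298. Without HFD replicate 3, the highest mouse, g was 1.08 (limma unadjusted p = 0.022, adjusted 0.994), and without HFD replicate 9, the lowest, g was 0.504, below the size of the values for Elovl5 (-0.608) and Fads2 (-0.549) without that mouse. Array weights gave an unadjusted p of 0.025 (adjusted 0.950). The mean of the endothelial markers, which were higher in MSXH for 6 of 6, had r = 0.487 with Fads1 over the 20 mice (permutation p = 0.029, adjusted over 110 relations 0.247), and its part in the difference was not tested.

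Fads2, the desaturase that opens the route, leaned the other way. HFD mice lay between -1.42 and 1.38 SD with a median of 0.518, and MSXH mice between -2.15 and 1.10 SD with a median of -0.044. The lowest were MSXH replicates 10 and 2, HFD replicates 9 and 2 came next, and most mice of both diets lay close together above them. The difference was g = -0.351 (95% interval -1.23 to 0.532, unadjusted p = 0.414). Fads2 has 3 probe sets, and the other two, which correlated with the one used at r = 0.942 and r = 0.934 over the 20 mice, gave g of -0.339 and 0.016.

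Among the elongases of this route, Elovl5, which acts on the Fads2 product, spread more widely in HFD than in MSXH. Its HFD mice ran from -1.16 to 2.20 SD with a median of 0.037 and its MSXH mice from -1.09 to 0.545 SD with a median of -0.127. The lows of the diets coincided, and 5 HFD mice lay above every MSXH mouse. The difference in mean was g = -0.440 (95% interval -1.33 to 0.447, unadjusted p = 0.320), and g = -0.730 for its other probe set. The difference in spread was not tested.

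Elovl2, whose enzyme elongates towards docosahexaenoic acid, ran from -1.53 to 2.42 SD in HFD with a median of 0.003, and from -1.26 to 1.23 SD in MSXH with a median of -0.223. HFD replicates 3 and 10 were the highest of all mice and HFD replicate 2 the lowest. The groups overlapped, with g = -0.244 (95% interval -1.12 to 0.635, unadjusted p = 0.568).

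For the elongases beside the route no difference between the diets was detected either. Elovl3, known in liver for its daily and male-biased expression, ran from -2.67 to 1.70 SD in HFD with a median of -0.215, and from -2.01 to 1.28 SD in MSXH with a median of 0.342. HFD replicate 9 and MSXH replicate 10 were far below the rest, the diets overlapped, and 9 of the 10 MSXH levels exceeded the median of HFD. The difference was g = 0.412 (95% interval -0.474 to 1.30, unadjusted p = 0.340). Elovl1 ran from -1.75 to 1.68 SD in HFD with a median of 0.061 and from -2.24 to 1.47 SD in MSXH with a median of -0.050. Its groups had almost equal means, with g = 0.001 (95% interval -0.875 to 0.878, unadjusted p = 0.998). The other Elovl1 probe sets had g = 0.092, 0.279 and 0.183, and correlated with the one used at r = 0.756, 0.890 and 0.325. The last of these lay under the filter on low values.

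Among the synthetases, Acsl4, which prefers arachidonic acid, ran from -1.28 to 1.27 SD in HFD with a median of 0.251 and from -2.20 to 1.58 SD in MSXH with a median of 0.108. The highest and the lowest mouse were both MSXH, replicates 9 and 8, and the HFD range lay inside theirs (g = -0.251, 95% interval -1.13 to 0.629, unadjusted p = 0.557). Acsl3, a synthetase of the endoplasmic reticulum and of forming lipid droplets, ran from -2.38 to 0.967 SD in HFD with a median of 0.204 and from -1.25 to 2.35 SD in MSXH with a median of -0.090. HFD replicate 9 was far below all others and MSXH replicate 3 far above them. The difference was g = 0.170 (95% interval -0.708 to 1.05, unadjusted p = 0.691), and it changed sign without either of these mice, to -0.080 without HFD replicate 9 and -0.075 without MSXH replicate 3.

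Lpcat3, which places polyunsaturated chains in phospholipids and is a known target of the liver X receptor, ran from -1.33 to 1.41 SD in HFD with a median of -0.112. In MSXH it ran from -1.41 to 2.48 SD with a median of -0.115. The medians were nearly equal and MSXH replicate 3 stood highest (g = 0.295, 95% interval -0.586 to 1.18, unadjusted p = 0.494). Pnpla3, a lipid droplet protein that acts on acyl chains of glycerolipids and an SREBP-1c target, ran from -1.21 to 2.19 SD in HFD with a median of -0.429 and from -1.20 to 1.74 SD in MSXH with a median of -0.131. Its groups overlapped almost completely (g = -0.016, 95% interval -0.893 to 0.860, unadjusted p = 0.971 in the fit without a filter on low values).

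**Figure D2:**
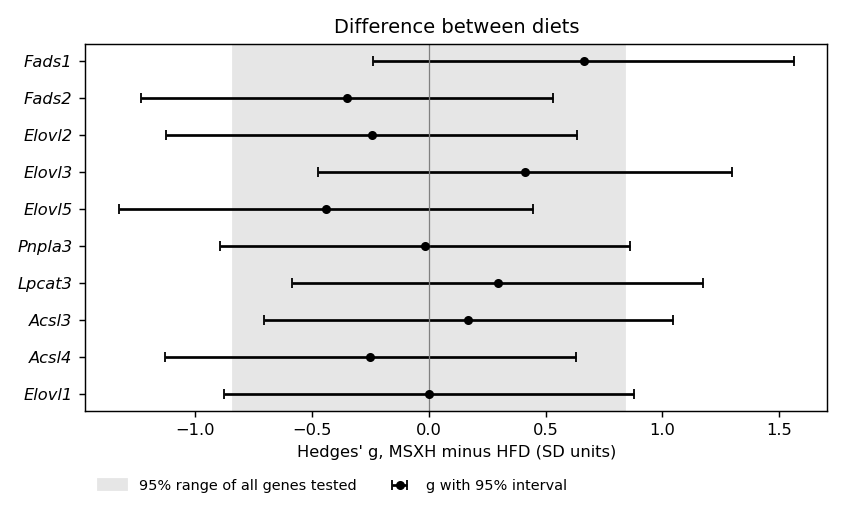
Hedges' g of MSXH minus HFD for the 10 genes, in SD units, as points with 95% intervals (n = 10 per diet). The grey band is the central 95% of g over all genes tested, -0.839 to 0.839; all 10 points lie inside it and all 10 intervals include 0.

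For the other genes of the pathway, taken from lists by their known function, 0 passed limma's adjusted threshold in either direction, as did 0.0% of all genes. Of 14 other elongation and desaturation genes tested, 7 were higher and 7 lower in MSXH, with a median g of 0.008. Fads3, a relative of Fads1 and Fads2, had g = 0.951 (95% interval 0.027 to 1.88, unadjusted p = 0.040). On the other side Hacd2, a dehydratase of the elongation cycle, had g = -0.553. Of 24 genes of acyl-CoA activation and phospholipid remodelling, 9 were higher and 15 lower (median g -0.031), from Agpat4, a lysophosphatidic acid acyltransferase, at -0.813 to the lysosomal phospholipase Pla2g15 at 0.677.

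Peroxisomal genes, which shorten very long chains in the last step to docosahexaenoic acid, were lower in MSXH for 10 of 12, with a median g of -0.170. Hsd17b4, the bifunctional enzyme of that step, had g = -0.343, and Acox3, an acyl-CoA oxidase, had 0.354. Of 12 genes of eicosanoid formation 8 were lower (median g -0.144), among them the epoxygenase Cyp2j5 at -0.868 (unadjusted p = 0.053), while the epoxide hydrolase Ephx1 had g = 0.532. Of 12 transcription factor and SREBP control genes 8 were higher (median g 0.108), and of 10 lipogenic genes 6 (median g 0.203). Srebf2, which encodes the SREBP of sterol synthesis, had g = 0.965 (95% interval 0.039 to 1.89, unadjusted p = 0.034), whereas Srebf1 had g = 0.337 and Nr1h3, the liver X receptor α gene, -0.389. In the lipogenic list, the malic enzyme gene Me1 had g = 0.658 and the lipase gene Pnpla5 -0.696. None of these values passed the adjusted threshold.

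Levels differed from mouse to mouse more than between the diets, and some mice differed in several of the 10 genes together. With 1 array per mouse, a difference between mice cannot be told apart from one between arrays. HFD replicate 9 had the lowest level of all 20 mice for 4 genes (Fads1, Elovl3, Elovl5 and Acsl3) and was below the mean for 9 of 10, with an average of -1.19 SD over the genes. Acsl4 was the exception, at 0.40 SD. HFD replicate 3 had the highest level for 4 genes (Fads1, Fads2, Elovl2 and Elovl1) and an average of 1.10 SD. In MSXH, replicate 3 was highest for Acsl3 and Lpcat3 and averaged 0.862 SD. The lowest and the highest average of the 20 mice were thus both in HFD.

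Over the 20 mice, the levels of Fads1 and Acsl3 varied together, with the highest Pearson r among the 45 pairs of the 10 genes. The mouse lowest in Fads1, HFD replicate 9, was also lowest in Acsl3, at -2.23 and -2.38 SD. The mice highest in Fads1, HFD replicate 3 at 1.92 SD and MSXH replicate 3 at 1.499 SD, had Acsl3 levels of 0.97 and 2.35 SD. Pearson's r was 0.687 (permutation p = 0.00075, adjusted over 45 pairs 0.034) and Spearman's rho was 0.602 (permutation p = 0.0056, adjusted 0.076). It was the only pair of 45 that passed by r, and 9 pairs had an unadjusted p under 0.05. By rho none passed, with 7 pairs at an unadjusted p under 0.05. Of all pairs among 11728 genes, 0.98% had an r of this size or larger in either direction, so 1 pair in 45 does not set these genes apart.

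Both diets showed the positive relation of Fads1 and Acsl3, with r = 0.818 in HFD and r = 0.597 in MSXH (n = 10 each). All 6 combinations of their probe sets were positive, from 0.373 to 0.687. The Acsl3 probe set used had a mean level of 7.12. Its others, at 5.72 and 6.02, lay under the median level of the array's probe sets (6.505). Leaving out HFD replicates 3 and 9, the 2 mice with the most extreme Fads1, gave r = 0.520 (permutation p = 0.024, unadjusted). Without the 2 farthest by Acsl3, HFD replicate 9 and MSXH replicate 3, it was 0.441 (p = 0.066), so the relation rests in part on these mice. The adjusted p stayed under 0.05 in 7 of the 20 fits that leave out 1 mouse. It was 0.05 or more, and at most 0.233, without HFD replicate 2, 3, 4, 6, 8, 9 or 10 or MSXH replicate 1, 2, 3, 5, 8 or 10. The lowest r of these fits was 0.558, without HFD replicate 9, and the highest was 0.815. After quantile normalization of the arrays the relation was negative and did not pass (r = -0.459, adjusted permutation p = 0.281).

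**Figure D3:**
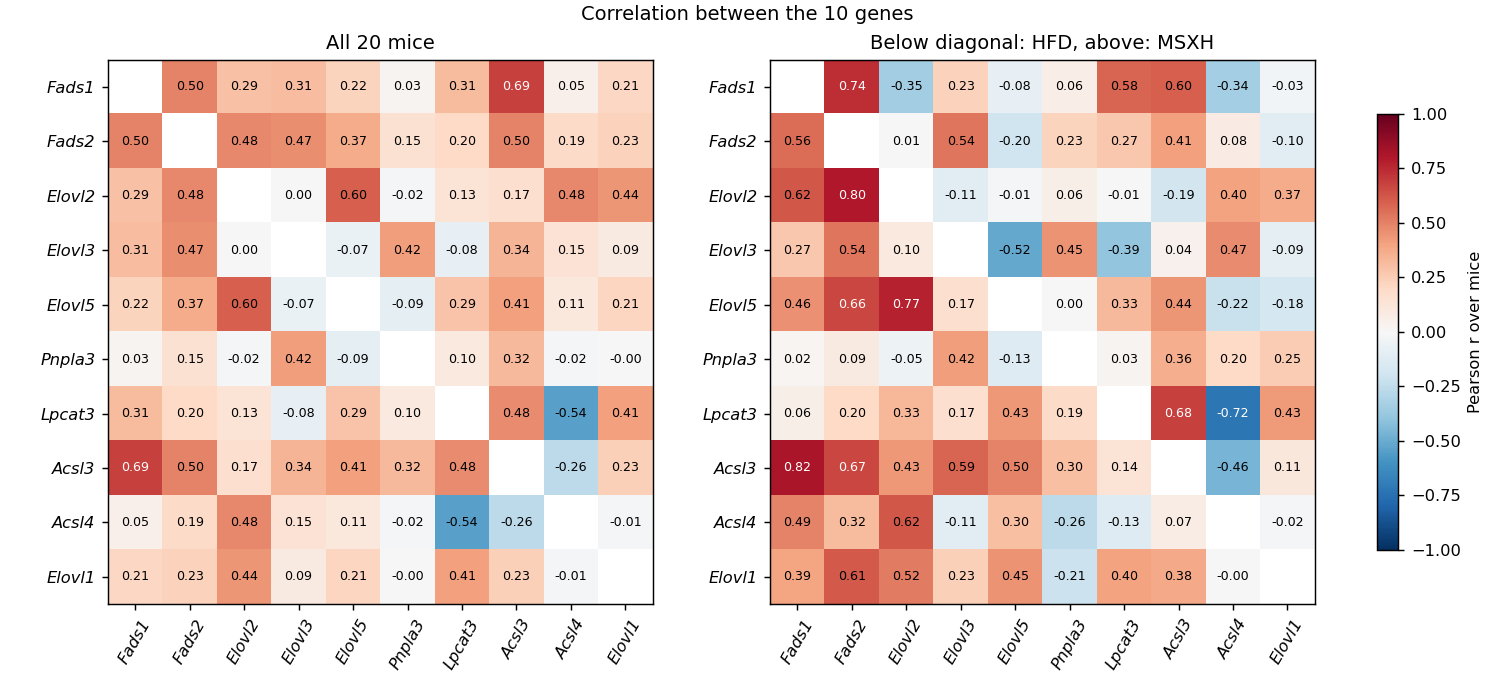
Pearson's r between the levels of the 10 genes over all 20 mice (left), and in HFD below and MSXH above the diagonal (right, n = 10 mice each). Colour runs from blue (-1) to red (1); Fads1 with Acsl3 has the highest r on the left (0.69), and several HFD values of Elovl2 and Elovl5 exceed those in MSXH, a difference that did not pass a test.

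The other pairs did not pass the adjusted threshold. Elovl2 and Elovl5, the elongases of the route, had r = 0.601 and rho = 0.60 (permutation p = 0.00485 and 0.00608, adjusted 0.109 and 0.076). The desaturases Fads1 and Fads2, whose genes lie on chromosome 19, had r = 0.495 and rho = 0.591 (p = 0.026 and 0.00677, adjusted 0.188 and 0.076). Fads2 and Acsl3 had the highest rho of the 45 pairs, 0.606, and r = 0.497 (p = 0.00568 and 0.025, adjusted 0.076 and 0.188). Fads2 and Elovl2 had r = 0.483, Elovl2 and Acsl4 0.484, Lpcat3 and Acsl3 0.476, and Fads2 and Elovl3 0.4655, each with an adjusted permutation p of 0.188. The last rested on a few mice: its rho was 0.174, and r was -0.020 without the 2 mice farthest from the Elovl3 median.

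Lpcat3 and Acsl4 ran against each other, with r = -0.540 and rho = -0.478 (permutation p = 0.014 and 0.035, adjusted 0.188 and 0.255). MSXH replicate 8 shows it, with the lowest Acsl4 of all mice (-2.20 SD) and a Lpcat3 level of 1.42 SD, as does MSXH replicate 9 with the highest Acsl4 (1.58 SD) and the lowest Lpcat3 (-1.41 SD). In all, 36 of the 45 pairs were positive and the median r was 0.212. An r of 0.6 or more was found for 2 pairs, which is 4.44% of the 45, and for 1.99% of all pairs among 11728 genes. The highest r of Pnpla3 with any of the others was 0.42, for Elovl3.

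No relation was shown to differ between the diets. Elovl2 and Elovl5 had r = 0.771 in HFD and -0.011 in MSXH, and permuting the diets gave p = 0.024, adjusted over 45 pairs 0.642. Fads2 and Elovl2 had r = 0.798 in HFD and 0.005 in MSXH, and Fads2 and Elovl5 0.665 and -0.199 (permutation p = 0.062, adjusted 0.642). Lpcat3 and Acsl4 went the other way, with r = -0.129 in HFD and -0.724 in MSXH (permutation p = 0.065, adjusted 0.642). With 10 mice per diet each of these values has a wide error, and 0 of 45 differences passed, with 1 at an unadjusted p under 0.05.

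Each of the 10 genes was next set against 12 regulators, their targets and a comparison gene, which asks whether the levels follow the SREBP, liver X receptor (Nr1h3), ChREBP (Mlxipl) or PPARα (Ppara) programs from mouse to mouse. Acsl3 had its highest r with Srebf1 and with the SREBP targets Insig1 and Idi1, but an r of 0.11 with Srebf2. Of 120 relations 4 passed the adjusted threshold by r and 25 had an unadjusted p under 0.05; by rho 0 passed, with 22 at an unadjusted p under 0.05. The weakest of the 4 had an r of 0.659 in size, and 1.47% of all gene pairs had an r of that size or larger. No test of the count against that share was made. After quantile normalization of the arrays, Acsl3 with Srebf1 (r = 0.766) and Insig1 (0.692) passed, while Fads2 with Hsd3b5 (0.488) and Acsl4 with Fasn (-0.304) did not pass.

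**Figure D4:**
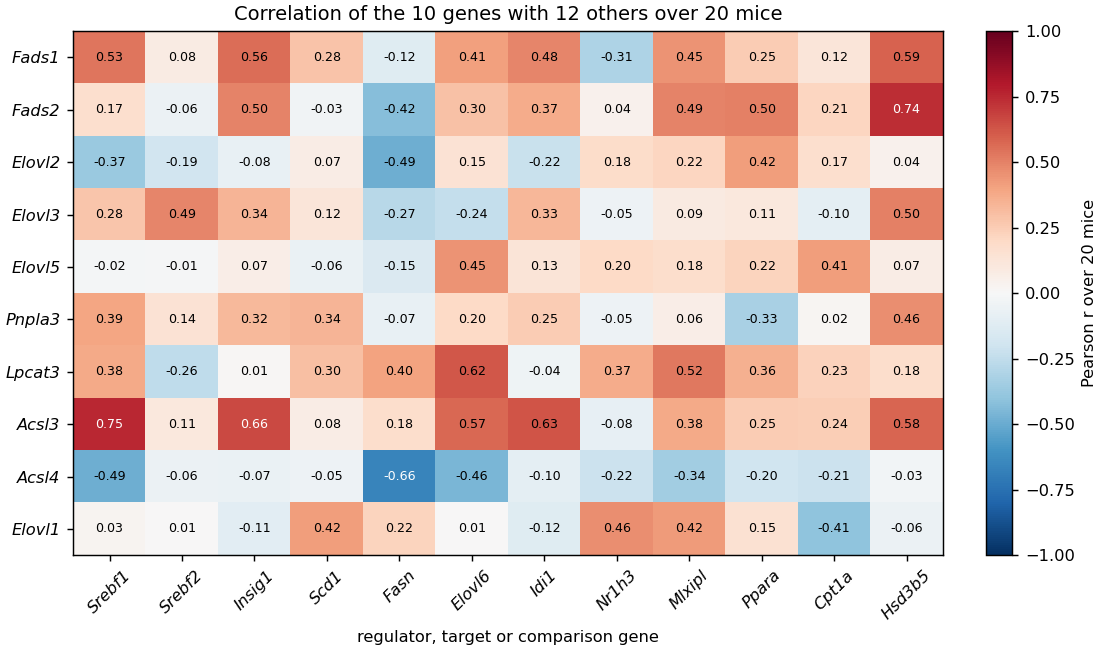
Pearson's r over all 20 mice between each of the 10 genes (rows) and 12 regulator, target or comparison genes (columns). Colour runs from blue (-1) to red (1); the relations that passed the adjusted threshold were Acsl3 with Srebf1 (0.75) and Insig1 (0.66), Fads2 with Hsd3b5 (0.74), and Acsl4 with Fasn (-0.66).

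Acsl3 and Srebf1 had r = 0.754 (permutation p = 0.00012, adjusted over 120 relations 0.014) and rho = 0.629 (p = 0.00367, adjusted 0.088). The relation was positive in both diets, with r = 0.619 in HFD and 0.852 in MSXH. MSXH replicate 3 was highest in both genes, with Srebf1 at 2.53 SD, and HFD replicate 9 lowest in both, with Srebf1 at -1.49 SD. Without the 2 mice farthest from the Acsl3 median, which are those same mice, r was 0.538 (permutation p = 0.021, unadjusted). The adjusted p rose above 0.05 when HFD replicate 9 (0.058) or MSXH replicate 3 (0.160) or 8 (0.056) was left out. Of the 3 Acsl3 probe sets, the one used gave the highest r with Srebf1. The lowest r, 0.199, came from a probe set under the filter on low values.

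Insig1, an SREBP target whose protein holds SREBP in the endoplasmic reticulum, had r = 0.659 with Acsl3 (permutation p = 0.00121, adjusted 0.048) and rho = 0.632 (p = 0.00364, adjusted 0.088). The relation had r = 0.668 in HFD and 0.653 in MSXH, and 0.404 (p = 0.095) without the 2 mice farthest from the Acsl3 median. It passed in 7 of 20 fits that leave out 1 mouse. The adjusted p was 0.05 or more, at most 0.294 (without HFD replicate 9), without HFD replicate 1, 3, 6, 8, 9 or 10 or MSXH replicate 2, 3, 6, 7, 8, 9 or 10. Idi1, an SREBP target of sterol synthesis, had r = 0.629 with Acsl3 (permutation p = 0.00216, adjusted 0.052) and Elovl6, the elongase of lipogenesis, 0.573 (adjusted 0.093). Scd1, the stearoyl-CoA desaturase gene, had r = 0.08 and Fasn 0.18.

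Fads1 had smaller values of the same sign, with r = 0.534 for Srebf1 and 0.558 for Insig1 (permutation p = 0.015 and 0.00977, adjusted 0.167 and 0.117). Its relation to these genes was positive in both diets, at 0.407 and 0.721 for Srebf1 and at 0.472 and 0.726 for Insig1 in HFD and MSXH. Fads2 had r = 0.497 for Insig1 but 0.17 for Srebf1. For Pnpla3, r with Srebf1 was 0.394 (permutation p = 0.084).

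Among the regulator, target and comparison genes, Fads2 was closest to Hsd3b5, a steroid dehydrogenase gene of male mouse liver included for comparison. The pair had r = 0.736 (permutation p = 0.00032, adjusted 0.019) and rho = 0.656 (p = 0.00226, adjusted 0.088), with r = 0.535 in HFD and 0.912 in MSXH. The mice lowest in Fads2, MSXH replicates 10 and 2 and HFD replicate 9, were also the lowest in Hsd3b5. HFD replicate 2, next lowest in Fads2 at -1.34 SD, had an Hsd3b5 level of 0.485 SD. Without the 2 mice farthest from the Fads2 median, r was 0.548 (permutation p = 0.019, unadjusted), and all 3 Fads2 probe sets gave an r between 0.660 and 0.736. The adjusted p rose above 0.05 when HFD replicate 9 (0.058) was left out, and likewise for MSXH replicate 2 (0.052), 8 (0.056) or 10 (0.053). Fads1 and Acsl3 had r = 0.592 and 0.578 with Hsd3b5, each with an adjusted permutation p of 0.093. Over all genes tested, others lay closer to Fads2 than Hsd3b5 did, among them Bdh1 (r = 0.883) and Mettl7b (r = 0.841). An r of 0.6 or more with Fads2 was found for 392 genes, so the value for Hsd3b5 does not set it apart.

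Acsl4 ran against Fasn, the fatty acid synthase gene, with r = -0.663 (permutation p = 0.00165, adjusted 0.0495) and rho = -0.611 (p = 0.00524, adjusted 0.105). MSXH replicate 9 was highest in Acsl4 and lowest in Fasn, and MSXH replicate 8 lowest in Acsl4 and highest in Fasn. The sign was negative in HFD (-0.508), in MSXH (-0.731) and for all 3 Acsl4 probe sets (-0.663 to -0.556), and without the 2 mice farthest from the Acsl4 median r was -0.654 (permutation p = 0.00359). The adjusted p stayed under 0.05 in 7 of the 20 fits that leave out 1 mouse. It was 0.05 or more, at most 0.186 (without MSXH replicate 8), without HFD replicate 1, 3, 4, 8, 9 or 10 or MSXH replicate 2, 3, 6, 7, 8, 9 or 10. Lpcat3 had positive values for lipogenic genes, with r = 0.621 for Elovl6 (permutation p = 0.00315, adjusted 0.063) and r = 0.524 with rho = 0.702 for Mlxipl (p = 0.017 and 0.00077, adjusted 0.173 and 0.088). Its r with Nr1h3 was 0.369.

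**Figure D5:**
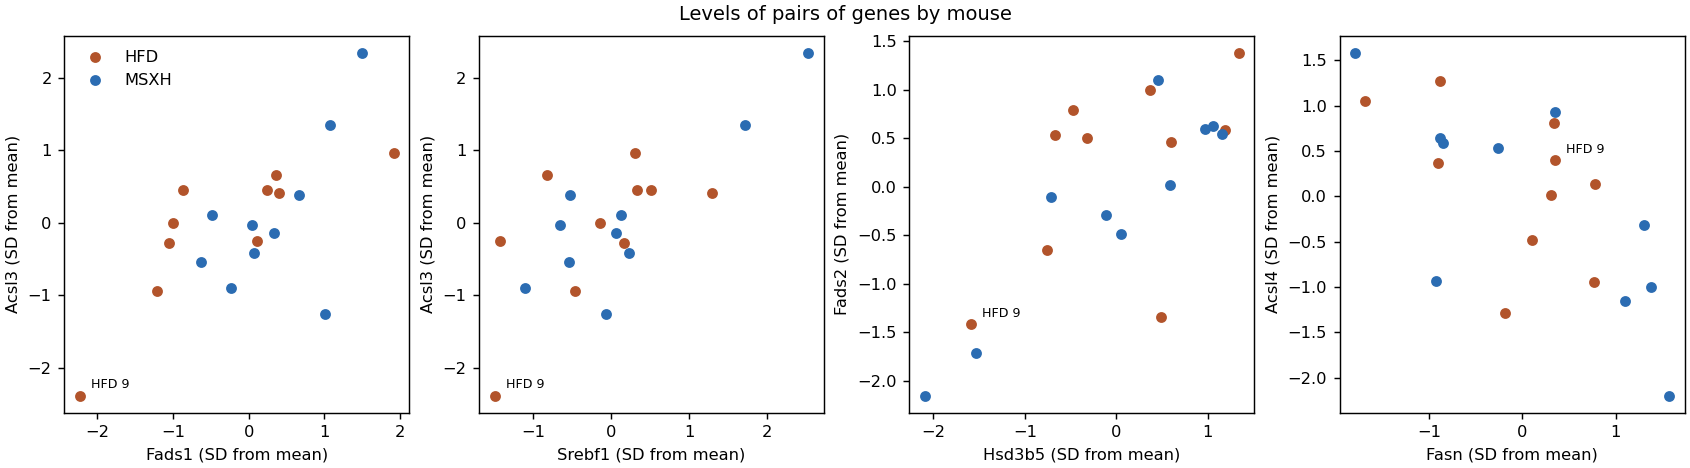
Levels in each mouse, in SD from the mean of 20 mice, for the pairs Fads1 and Acsl3, Srebf1 and Acsl3, Hsd3b5 and Fads2, and Fasn and Acsl4 (left to right; HFD orange, MSXH blue, n = 10 each). HFD replicate 9, labelled, is at the low end of the first pair (-2.23 and -2.38 SD) and of the second. It is also low in the third (Hsd3b5 -1.58 SD and Fads2 -1.42 SD), and in the middle of the last.

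In 2 of the 20 fits that leave out 1 mouse, those without HFD replicate 9 and without MSXH replicate 8, 0 of 45 pairs and 0 of 120 relations passed the adjusted threshold, with 6 and 17 at an unadjusted p under 0.05 in the former and 8 and 26 in the latter. Without HFD replicate 9 the r values were 0.558 for Fads1 and Acsl3, 0.718 for Acsl3 and Srebf1, 0.699 for Fads2 and Hsd3b5, 0.536 for Acsl3 and Insig1, and -0.676 for Acsl4 and Fasn. Without MSXH replicate 8 they were 0.661, 0.721, 0.730, 0.647 and -0.593 in the same order. The actin control probe sets, read at the 3′ and the 5′ end of the transcript, give a measure of RNA and labelling quality. Their 3′ minus 5′ difference had g = 0.491 between the diets (MSXH minus HFD), and its part in the diet differences was not tested. Over the 20 mice this measure had r = -0.517 with Elovl3, -0.494 with Fads2, -0.444 with Acsl3 and -0.338 with Fads1. In the same order rho was -0.227, -0.281, -0.427 and -0.068. None passed the adjusted threshold over 110 relations, by r or by rho. With this measure as a covariate, Fads1 and Acsl3 had r = 0.637 (adjusted permutation p = 0.043), and Acsl3 and Srebf1 0.753 (0.034), while Fads2 and Hsd3b5 with 0.642 (0.081), Acsl3 and Insig1 with 0.574 (0.103) and Acsl4 and Fasn with -0.621 (0.081) no longer passed.

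No relation of the 10 genes to the mean level of a cell type's markers passed the adjusted threshold over 110 relations, by r or by rho. Lpcat3 had r = -0.540 and rho = -0.687 with 5 hepatocyte markers (adjusted permutation p = 0.214 and 0.057), whose mean per mouse ran from -1.58 to 0.674 SD in HFD and from -1.01 to 0.774 SD in MSXH, with 2 of 5 higher in MSXH. With the 2 adipocyte markers past the filter, of 5 listed, Lpcat3 had r = -0.590 and rho = -0.654 (adjusted 0.131 and 0.081). Their mean ran from -0.878 to 1.26 SD in HFD and from -1.02 to 1.27 SD in MSXH, with 1 of 2 higher in MSXH. Fads2 had r = 0.653 and rho = 0.621 with 7 Kupffer cell (liver macrophage) markers (adjusted permutation p = 0.097 and 0.101). For Fads1 and Acsl3, r with these markers was 0.540 and 0.477. Of the 7 markers, 1 was higher and 6 were lower in MSXH, and their mean per mouse ran from -0.908 to 1.66 SD in HFD and from -1.89 to 1.83 SD in MSXH; none was listed at 0. Pnpla3 had r = 0.692 and rho = 0.716 with the 2 red blood cell markers past the filter, of 4 listed (adjusted 0.092 and 0.057), 1 of them higher in MSXH. Their mean ran from -1.45 to 0.836 SD in HFD and from -1.22 to 0.817 SD in MSXH. The 6 endothelial markers had a g of 0.911 for their mean, which ran from -0.909 to 0.574 SD in HFD and from -0.970 to 1.01 SD in MSXH. The part of these cell types in the levels of the 10 genes was not tested.

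The genes most like each of the 10, by Spearman's rho over the 20 mice among all genes tested, were mostly not lipid genes by name, and these values are given as a description. For Fads1 they were 2410002F23Rik (0.805), Susd1 (0.802) and the lipid phosphatase Plpp5 (0.797). For Fads2 they were the lipid droplet methyltransferase Mettl7b (0.874), Purb (0.851) and Pgap1 (0.847). Elovl2 was nearest to Mob3b (0.794), Ywhag (0.780) and Ehhadh (0.764), the peroxisomal bifunctional enzyme. Elovl5 was nearest to Lamb3 (0.707), Tgds (0.692) and Ppp1r10 (0.656), the lowest set of values among the 10. In the values as given, 12 genes had an r of 0.6 or more with Elovl5. This depended on the scaling of the arrays. Pearson's r for Lamb3, Tgds and Ppp1r10 was 0.639, 0.618 and 0.568, and after a shift of the arrays to 1 median 0.883, 0.907 and 0.847.

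Elovl3 was nearest to Tmed7 (0.811), Rab35 (0.802) and Sec11c (0.767). Pearson's r for these was 0.811, 0.758 and 0.741, and after a shift of the arrays to 1 median 0.244, 0.414 and 0.733. Elovl1 was nearest to Zhx1 (0.866), Dyrk2 (0.860) and Zdhhc18 (0.848). Elovl1 had the most genes of the 10 with an r of 0.6 or more, 517, against 392 for Fads2 and 68 for Pnpla3. Lpcat3 was nearest to Mlycd (0.842), the malonyl-CoA decarboxylase gene, Slc25a42 (0.824), a mitochondrial coenzyme A carrier, and Cln3 (0.814). Acsl3 was nearest to Naip5 (0.833), S1pr3 (0.792) and Lgals3bp (0.791), and Acsl4 to Stx3 (0.839), the ribosomal protein gene Rpl27 (0.821) and the splicing factor gene Sfpq (0.803). Pnpla3 was nearest to Cplx1 (0.791), Bud13 (0.765) and Jsrp1 (0.725). By Pearson's r these had 0.696, 0.482 and 0.721 with Pnpla3, and after a shift of the arrays to 1 median 0.969, 0.221 and 0.686. Naip5, S1pr3 and Lgals3bp had 0.539, 0.707 and 0.764 with Acsl3.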

How the data were processed

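Biotin labelling started from 200 ng of RNA per liver, per the labels' protocols, with a kit that primes at the 3′ end of transcripts. The authors deposited 1 value per array for 45101 probe sets, read here as log2 because the highest is above what a natural log (11.09) or log10 (4.82) of a 16-bit scan could reach. The log base, the normalization and how probes were combined are not given in the sources here. Array medians spanned 4.37e-05. Of 45037 probe sets that are not controls, 34945 have 1 gene in the platform annotation, 932 several and 9160 none.

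The diet test was limma 3.58.1 (R 4.3.3) on the values as given, with Benjamini-Hochberg adjustment over all genes and a threshold of 0.05. Correlations used 2-sided permutation tests with 100000 resamples (Python 3.11.15), adjusted over 45 pairs, 120 relations, or 110 relations with markers and array measures. The number of arrays limits the precision. The members, lists and tests were chosen with earlier results of these data known. Genes named are the members, the 12 comparison genes, the 3 nearest genes of each member, and in each list those with an unadjusted p under 0.05 or the smallest p in each direction. The procedure was tested on simulated data with 200 of 11728 genes shifted and every gene drawn independently. There, 0 genes were called with no shift and 99.5% were recovered at 3 SD. Of the genes called, 19 of 218 at 3 SD and 8 of 116 at 2 SD were false calls. Deviations of same-numbered mice of the diets correlated at 0.053 on average, from -0.133 to 0.369, against -0.006 for mice of other numbers. The main tests used no pairing. Alternatives covered scaling, filter, probe set, variance model, array weights, rank tests, the replicate block and leaving out each mouse.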

Additional observations from a re-analysis of the deposited data

Results flagged for a closer look

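Elovl3 in MSXH replicate 10 stood apart from its group. It lay at -2.01 SD, and the gap to the next lowest MSXH mouse was 0.601 of the group's range, above Dixon's 95% limit for a group of 10. Elovl3 in HFD replicate 9 was lower still, at -2.67 SD. This was 1 of 44 sets of 10 mice examined, and chance flags about 5% of sets, or 2.2 of 44.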

How the results depend on the processing

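The count of 0 genes differing between the diets was 0 under every alternative run, including each mouse left out. This held over all genes and over those of the 10 that were tested. The main fit tested 9 of the 10, the fit without a filter 10, the 75th percentile filter 8 and quantile normalization 7. The count of all genes at an unadjusted p under 0.05 (425) was 140 after a shift of all arrays to 1 median and 128 after quantile normalization. It was 780 without a filter, 197 under a filter at the 75th percentile and 704 over single probe sets, where the number tested differs too, and 318 to 598 with 1 mouse left out. Signs of small differences turned. With quantile normalization, which leaves Elovl2 and Elovl5 constant and so without a value, g was -0.192 for Fads1, 0.211 for Fads2, -0.048 for Lpcat3, 0.127 for Acsl4 and -0.341 for Elovl1. After the shift to 1 median, g was 0.013 for Elovl5 and 0.220 for Pnpla3, and the other Fads2 probe set gave 0.016. With 1 mouse left out g ran from -0.211 to 0.239 for Pnpla3, from -0.080 to 0.317 for Acsl3 and from -0.193 to 0.269 for Elovl1. For the others it kept its sign but moved over 1.5 times: 0.504 to 1.08 for Fads1, -0.549 to -0.159 for Fads2, -0.443 to -0.006 for Elovl2, 0.185 to 0.753 for Elovl3, -0.608 to -0.256 for Elovl5, 0.060 to 0.482 for Lpcat3 and -0.460 to -0.040 for Acsl4.

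The number of the 45 pairs that passed (1) was 0 by rho, 0 with quantile normalization (28 pairs), 0 in HFD alone, 0 in MSXH alone, 2 with the actin covariate and 7 after the shift, and 0 to 2 with 1 mouse left out. Shifting the arrays adds the same term to every gene of a mouse. The 6 added pairs are those among Pnpla3, Elovl5, Lpcat3 and Elovl1. The number of the 120 relations that passed (4) was 0 by rho, 10 after the shift, 2 with diet means removed, 0 in HFD alone, 0 in MSXH alone, 1 with the actin covariate, and 0 to 7 with 1 mouse left out. With the replicate block it was 0, and the 1 pair that passed was Fads1 with Fads2 (r = 0.850) in place of Fads1 with Acsl3 (r = 0.617). Same-numbered mice correlated between -0.133 and 0.369 (3 of 10 above 0.1), so the numbers were not taken as pairs. Fads1 and Acsl3 had r = -0.459 with quantile normalization. The cause of these changes was not tested. The files give no signal over background.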

Other observations

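Hacd1, a dehydratase of the elongation cycle, was the fourth nearest gene to Elovl1, with rho = 0.839 and r = 0.809 over the 20 mice (r = 0.890 in HFD and 0.779 in MSXH). It was chosen after its values were seen and is given with no test. Among further near genes, Bdh1, a ketone body dehydrogenase gene, had r = 0.883 with Fads2 (0.827 in HFD, 0.946 in MSXH), and Abcg1, a sterol transporter gene, had r = 0.770 with Fads1 (0.792 in HFD, 0.861 in MSXH), both likewise chosen after their values were seen.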
